A study of Mus musculus with 5 samples.

Results

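The 65 genes described here are the histone genes of the mouse, taken as every gene in the 5 count files whose name begins with Hist followed by a cluster number and h, or with H2af, H3f3 or H1f. They were 65 of 15597 genes with reads in the series. By name, 54 were replication-dependent cluster genes (5 of H1, 14 of H2A, 15 of H2B, 8 of H3 and 12 of H4) and 11 were replacement variants (3 of H1, 6 of H2A and 2 of H3). Single cells of 3 types had been sorted into 5 plates of 96 wells, with a barcode for each well, and their mRNA was reverse transcribed by template switching and pooled before PCR. ES R1 cells, a mouse embryonic stem (ES) line whose label reads embryonic stem cell-derived spheres, took up 3 plates, while 1 plate each was filled with mouse embryonic fibroblasts (MEF) and with Neuro2A cells, which come from a mouse neuroblastoma. No treatment or genetic change is labelled for any of the 3 groups, and Neuro2A and MEF shared a serum-containing DMEM medium. With 1 plate each for Neuro2A and MEF, a difference of type and a difference of plate cannot be told apart.

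Nucleosomes wrap DNA around an octamer of the core histones H2A, H2B, H3 and H4, and linker histone H1 binds where the DNA enters and leaves. The replication-dependent genes lie in clusters, are transcribed mainly in S phase to package newly made DNA, and give mRNAs that as a rule have no introns and end in a conserved stem-loop instead of a poly(A) tail. Replacement variants are polyadenylated, are made throughout the cell cycle, and are placed in chromatin outside replication, such as H3.3 at active genes and H2A.Z at promoters. The protocol primed reverse transcription with an oligo ending in a run of T, which anneals to poly(A), so the values below are for histone RNA that such a primer captured.

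Gene reads, that is reads on features other than repeats and mitochondrial genes, came to between 277068 (ES replicate 2) and 11434036 (ES replicate 1) per plate. Of 480 wells, the 431 with 1000 or more gene reads were kept. The 8 ES marker genes summed to between 4488 and 8772 CPM (counts scaled to a common library size) in the ES plates, against 0.322 in Neuro2A and 2.53 in MEF, with 7 and 5 of the 8 at 0 in the last 2. The 8 fibroblast markers summed to 50331 CPM in MEF and to between 1537 and 5419 elsewhere, and the 6 Neuro2A markers with reads to 1493 CPM in Neuro2A and at most 152 elsewhere. Macrophage (1 of 5 genes with reads), endothelial (4 of 4) and erythroid (2 of 3) markers reached at most 16.5, 87.1 and 13.6 CPM. All 96 barcodes were used on every plate, and at the same barcode ES replicate 3 held a median of 10.8% of the MEF reads over 200 MEF-specific genes, and MEF held 9.41% of the Neuro2A reads over 133 Neuro2A-specific genes. Class shares, makeup by histone type, shares of wells and, for part of the genes, fold changes against MEF are therefore also given after subtracting these shares. Shares by annotated loop model, ratios of Neuro2A to MEF and the lists of other genes are given without subtraction.

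The 3′ stem-loop that marks replication-dependent histone mRNAs is shown for 6 of the genes the results turn on, and for H2afx, the replacement variant whose transcript also carries it. The letters searched for on the transcript strand were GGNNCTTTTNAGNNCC, in GENCODE M21 transcripts on GRCm38; for the deposited counts, neither build nor annotation is stated. Capitals mark the stem and lower case the 4-base loop, 5′ to 3′.
Hist1h1c, chr13:23739512-23739527, + strand: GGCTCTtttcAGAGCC
Hist1h2ac, chr13:23683477-23683492, - strand: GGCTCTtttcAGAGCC
Hist1h2bg, chr13:23571843-23571858, + strand: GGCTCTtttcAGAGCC
Hist2h3c1, chr3:96247327-96247342, + strand: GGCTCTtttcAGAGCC
Hist1h4i, chr13:22040966-22040981, - strand: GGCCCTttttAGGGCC
Hist4h4, chr6:136803998-136804013, - strand: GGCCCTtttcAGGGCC
H2afx, chr9:44335240-44335255, + strand: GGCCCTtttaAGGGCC

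The loop was found in 35 of 54 cluster genes and 1 of 11 replacement variants, against 89 of 55450 genes of the annotation, 0.161%. Of the 65 names, 64 matched a coding gene of that annotation. The form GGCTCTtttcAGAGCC was found in 20 genes, all of H1, H2A, H2B or H3, while the H4 genes with a match used other stems, 6 of them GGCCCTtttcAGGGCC. No match says only that these letters are not in the annotated model, and 9 cluster genes had models of the coding sequence alone. A poly(A) signal hexamer (AATAAA or ATTAAA) lay in the last 50 bases of at least 1 coding transcript of 13 cluster genes and 9 replacement variants. Over all genes it was counted per transcript, in 50.2% of protein-coding transcripts, which is not a background for counts per gene.

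Annotated models of 18 cluster genes ran on for over 100 bases past the loop, and those of 17 ended within 100 bases of it. The 18 longer genes held 35.2%, 62.5% and 37.7% of cluster-gene reads in ES replicates 1, 2 and 3, against 35.9% in Neuro2A and 67.0% in MEF. The 17 shorter genes held 38.0%, 18.8% and 29.6% in the ES plates, against 8.11% in Neuro2A and 5.49% in MEF. The 18 genes with no loop in the model held 26.8%, 18.8% and 32.7% in ES, against 56.0% in Neuro2A and 27.3% in MEF. Among them is Hist1h1a, with 1470 of the 3007 cluster-gene reads of Neuro2A, 1119 of them in 1 well. These reads lower the Neuro2A shares of the other groups. As given, the shorter models had a higher share in each ES plate than in the other 2 plates, with 21 reads in ES replicate 2. The longer models overlapped between ES and Neuro2A.

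Replacement variants supplied most histone reads on every plate. Cluster genes took 5.05%, 15.2% and 8.51% of histone reads in ES replicates 1, 2 and 3, against 20.5% in Neuro2A and 29.2% in MEF. As a share of all gene reads, cluster genes took 0.0154%, 0.0427% and 0.0265% in the ES plates, against 0.0953% in Neuro2A and 0.0596% in MEF. Each ES plate lay below both other plates. The ES mean of 0.0282% ± 0.0137 (SD, n = 3) was lower than Neuro2A by a factor of 3.38 and lower than MEF by a factor of 2.12. The two-sided exact permutation test over plates gave p = 0.25 for each, the smallest value that 3 plates against 1 allow. The gene with most reads held 48.9% of cluster-gene reads in Neuro2A (Hist1h1a) and 27.7% in MEF (Hist1h1c). In ES replicates 1, 2 and 3 the top gene held 18.3%, 18.8% and 13.5%.

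Replacement variants took 0.289%, 0.238% and 0.285% of gene reads in the ES plates, against 0.370% in Neuro2A and 0.145% in MEF. All ES plates lay between the other 2. With all reads as the denominator, repeats included, ES replicate 2 was at 0.0352%, below the 0.0957% of MEF, while ES replicates 1 and 3 stayed above it at 0.187% and 0.147%. The ES mean of 0.271% ± 0.0283 (SD, n = 3) was 1.87 times the MEF share, and Neuro2A was 1.37 times the ES mean. Each again had an exact permutation p = 0.25. These shares are of unscaled reads, unlike the CPM of single genes. Dividing them by the TMM factors, 0.676 for MEF and 1.35 for ES replicate 2, would bring ES and MEF closer. It would also put ES replicate 2 below MEF. After subtraction of carried-over reads the cluster-gene share was 0.0243% in ES replicate 3 and 0.0571% in MEF, and the replacement share 0.297% and 0.125%, which left the ES plates on the same side of both others for each class. Subtraction removed 17.7% of the cluster-gene reads of ES replicate 3 and 18.8% of the replacement reads of MEF. A plate sum cannot tell fewer cells with a transcript from less RNA per cell, and p-values over plates measure only the spread between these plates, which may be technical.

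**Figure D1:**
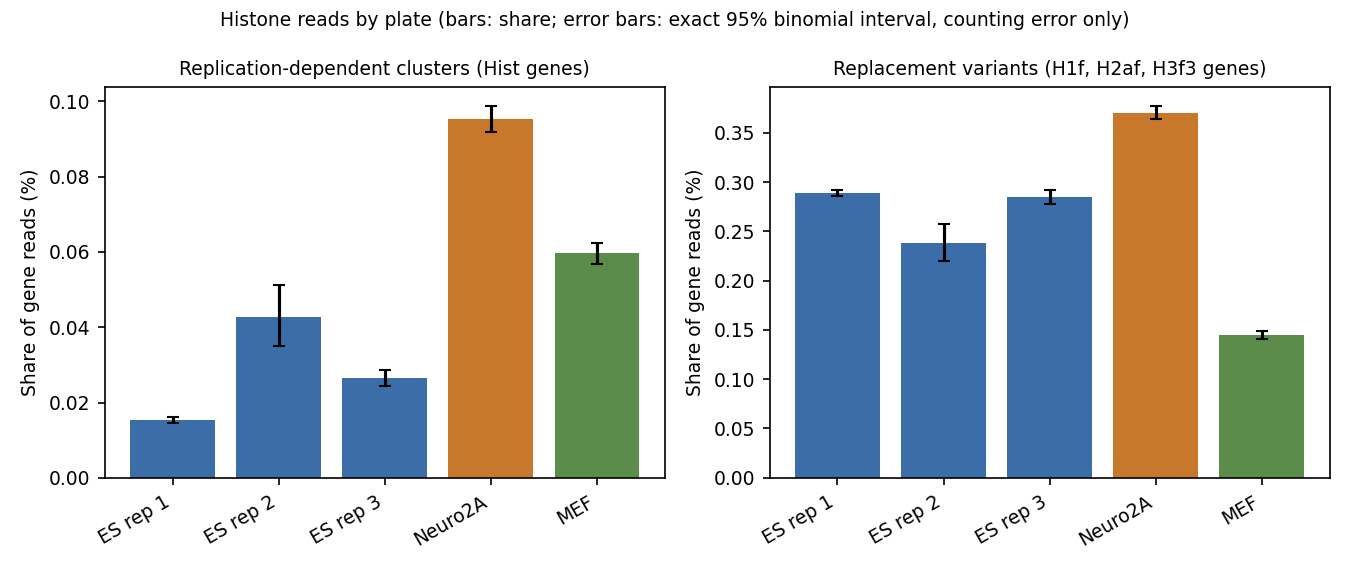
Share of gene reads on replication-dependent cluster genes (left) and replacement variants (right), in percent, for the 5 plates; bars are shares of summed reads in kept wells and error bars are exact 95% binomial intervals that cover counting error only. The 3 ES plates sit between 0.0154% and 0.0427% on the left, below Neuro2A and MEF, and between 0.238% and 0.289% on the right, above MEF and below Neuro2A.

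The cluster-gene reads differed between plates in which histone they encoded. H2A genes gave 47.0%, 58.9% and 38.1% of cluster-gene reads in ES replicates 1, 2 and 3, against 11.0% in Neuro2A and 6.06% in MEF, so every ES plate was above both others. Linker H1 genes gave 27.2%, 8.93% and 30.3% in the ES plates, against 65.1% in Neuro2A and 41.6% in MEF, so every ES plate was below both others. H2B genes gave 21.2%, 10.7% and 10.6% in ES, 4.56% in Neuro2A and 26.8% in MEF. H3 genes overlapped between ES and both others and H4 genes between ES and Neuro2A, with H3 at 1.02%, 17.9% and 7.43% in ES, 7.42% in Neuro2A and 11.7% in MEF, and H4 at 3.58%, 3.57% and 13.6% in ES, 12.0% in Neuro2A and 13.8% in MEF. After subtraction H2A genes gave 45.8% in ES replicate 3 and 6.51% in MEF, and H1 genes 28.0% and 37.4%, on the same sides as before. ES replicate 2 rests on 112 cluster-gene reads in all, against 1758 in ES replicate 1, 565 in ES replicate 3, 3007 in Neuro2A and 1748 in MEF. Of the 3007 in Neuro2A, 1119 were reads of 1 H1 gene, Hist1h1a, in 1 well, which raises the H1 share of that plate.

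**Figure D2:**
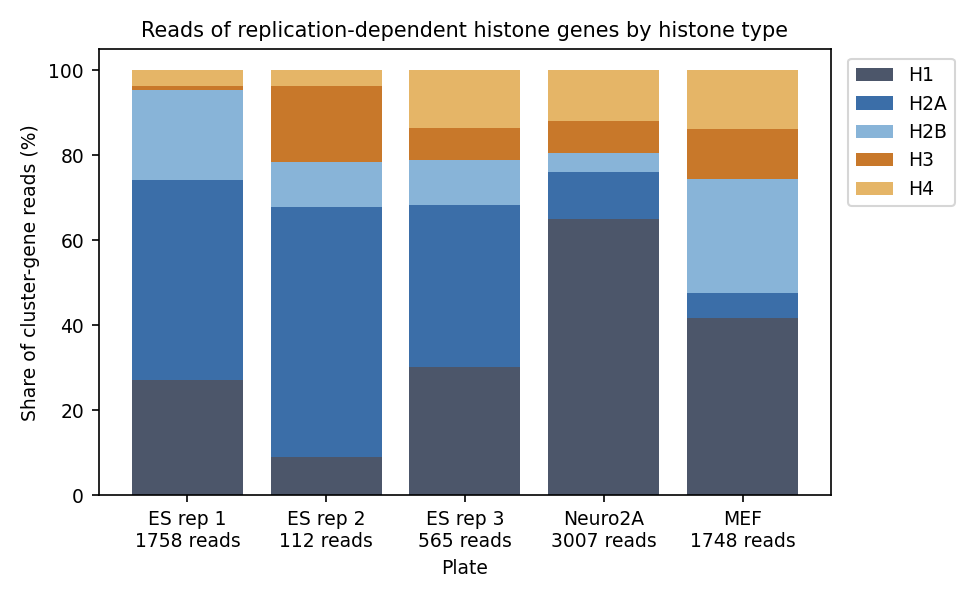
Makeup of cluster-gene reads by histone type for each plate, in percent of those reads, with the number of reads under each bar. H2A genes hold the largest share in the 3 ES plates (38.1% to 58.9%), and H1 genes in Neuro2A (65.1%) and MEF (41.6%). In Neuro2A, 1119 of 3007 reads were Hist1h1a reads of 1 well.

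Single wells carried much of the cluster-gene signal. The well with most cluster-gene reads held 14.1%, 34.8% and 12.6% of them in ES replicates 1, 2 and 3, against 37.6% in Neuro2A and 16.3% in MEF. The same wells held 4.10%, 25.9%, 1.18%, 1.78% and 2.53% of gene reads. For replacement variants the top well held between 5.86% and 12.8% of the reads, a range below 4 of the 5 cluster-gene values. The protocol names no molecular identifiers, so reads in 1 well may be PCR copies of few molecules, and intervals cover counting error only.

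Among the linker histones of the clusters, Hist1h1a (H1.1) stood at 1.70 CPM in ES replicate 1, at 8.71 in replicate 2 and at 9.14 in replicate 3, against 473 in Neuro2A and 61.1 in MEF. The Neuro2A plate was far above all others, but 1119 of its 1470 reads came from 1 well, and 32 of its kept wells had any. The log2 fold change of ES over Neuro2A was -6.28 ± 1.10 (SE), with an edgeR quasi-likelihood adjusted p of 0.189 and a DESeq2 adjusted p of 0.000285. Subtraction of carried-over reads, which by construction lowers genes of the source plate, left 0 of the 121 MEF reads and reversed the sign of the fold change against MEF.

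Hist1h1c (H1.2), a linker histone whose mRNA is also known in polyadenylated form, stood at 26, 0 and 20.6 CPM in the ES plates, against 142 in Neuro2A and 245 in MEF. Both other plates were above every ES plate, and the gene had reads in 32 kept wells of Neuro2A and 28 of MEF, against 20, 0 and 12 of the ES plates. In MEF 231 of its 485 reads lay in 1 well. After subtraction its 45 reads in ES replicate 3 fell to 0, while MEF kept 444, and the log2 fold change of ES over MEF was -4.31. Before subtraction the log2 fold change of ES over MEF was -3.89 ± 1.43 (edgeR adjusted p = 0.563), and of ES over Neuro2A -3.10 ± 1.42 (edgeR adjusted p = 0.450). Hist1h1d (H1.3) had 0.0808, 0 and 10.1 CPM in ES, 3.54 in Neuro2A and 58.6 in MEF, where 102 of 116 reads came from 1 well. ES and Neuro2A overlapped for it.

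Among the core histones, Hist1h2bc (an H2B) had 11.8, 17.4 and 10.5 CPM in the ES plates, against 27.4 in Neuro2A and 168 in MEF. MEF was above every other plate, with reads in 26 kept wells, and the log2 fold change of ES over MEF was -3.69 ± 1.09 (edgeR adjusted p = 0.508). After subtraction its 23 reads in ES replicate 3 fell to 0, while MEF kept 325 of 333. Hist2h3c1 (an H3.2) had 0.969, 8.71 and 19.2 CPM in ES, 47.0 in Neuro2A and 103 in MEF, and both other plates lay above all ES plates. Its log2 fold change of ES over MEF was -3.42 before subtraction and -3.69 after.

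Hist1h2bg (H2B) and Hist1h4i (H4) were high in MEF through 1 well each. Hist1h2bg had 0.0808, 0 and 6.86 CPM in ES, 0 in Neuro2A and 60.6 in MEF, where 90 of 120 reads lay in 1 well. Hist1h4i had 0.565, 0 and 12.8 CPM in ES, 1.61 in Neuro2A and 93.4 in MEF, where 151 of 185 reads lay in 1 well. Hist4h4, an H4 gene outside the main clusters, had 0, 2.90 and 0.914 CPM in ES, 66.0 in Neuro2A and 5.05 in MEF, and 203 of its 205 Neuro2A reads lay in 1 well. For these 3 genes the plate level describes mainly 1 well. After subtraction the log2 fold changes of ES over MEF were -6.88 for Hist1h2bg and -5.52 for Hist1h4i, against -4.59 and -4.29 before. For Hist4h4 subtraction left 0 of the 10 MEF reads, so its fold change against MEF after subtraction has no MEF read behind it.

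The H2A cluster genes took the opposite direction in part. Hist1h2ac had 11.3, 61.0 and 5.03 CPM in the ES plates, 0 reads in Neuro2A and 3 reads (1.52 CPM) in MEF, and every ES plate was above both others. Its DESeq2 adjusted p against Neuro2A was 0.0498, and its edgeR adjusted p 0.440. In ES replicate 2, its highest plate, 16 of 21 reads (76.2%) lay in 1 well. It is named because DESeq2 called it, after its values were seen. Hist1h2ae had 1.53, 55.2 and 3.20 CPM in ES, 26.7 in Neuro2A and 5.05 in MEF, and Hist3h2a had 2.10, 29.0 and 12.8 in ES, 21.9 in Neuro2A and 12.1 in MEF. For both, ES replicate 2 was the highest plate and the ES plates overlapped the others.

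Of the other cluster genes, many had few reads. In kept wells, reads were found for 40, 26 and 31 of the 54 in ES replicates 1, 2 and 3, and for 31 in Neuro2A and 31 in MEF, with 13 found in all 5 plates and 17 in exactly 1. Hist1h2ba, an H2B gene known from testis, had 0, 0 and 2 reads in the ES plates, against 1 in Neuro2A and 7 in MEF. Near-identical coding sequences within each histone type mean that reads could be shared between copies, and the treatment of such reads in the deposited counts is not stated.

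Among the replacement variants, H2afz (H2A.Z) had 1266 CPM in ES replicate 1, 740 in replicate 2 and 1426 in replicate 3, against 486 in Neuro2A and 319 in MEF. Every ES plate was above both other plates. The ES mean of 1144 ± 359 CPM (SD, n = 3) was 3.59 times MEF, a log2 fold change of 1.84 ± 0.80 (edgeR adjusted p = 0.589), and 2.35 times Neuro2A, 1.24 ± 0.77 (edgeR adjusted p = 0.524). After subtraction the log2 fold change over MEF was 2.48, with 489 of 631 MEF reads left. H2afv, its close paralog, had 209, 171 and 191 CPM in ES, 317 in Neuro2A and 75.3 in MEF, so the ES plates lay between the others. Subtraction left 56 of its 149 MEF reads, and the log2 fold change of ES over MEF was 1.34 before and 3.00 after. Per kilobase of transcript, H2afz gave 90.3%, 86.8% and 92.0% of the summed reads of this pair in the ES plates, against 70.1% in Neuro2A and 86.6% in MEF, lowest in Neuro2A. Without division by length it gave 85.8%, 81.2% and 88.2% in ES, 60.6% in Neuro2A and 80.9% in MEF. Whether reads scale with transcript length in these libraries was not tested. After subtraction the share per kilobase was 92.1% in ES replicate 3 and 93.0% in MEF, so that MEF stood above every ES plate.

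H3f3a and H3f3b both encode H3.3. H3f3b had 668, 560 and 829 CPM in the ES plates, against 2326 in Neuro2A and 1237 in MEF. On this TMM scale every ES plate was below both others. Without TMM factors ES replicate 3 lay above MEF, with 1813 of 2134248 gene reads against 2450 of 2930884. The log2 fold change of ES over Neuro2A was -1.76 ± 0.61 (edgeR adjusted p = 0.368, DESeq2 adjusted p = 0.0412), and of ES over MEF -0.85 ± 0.63 (edgeR adjusted p = 0.622), or -0.20 after subtraction. H3f3a had 267, 34.8 and 25.6 CPM in ES, 242 in Neuro2A and 74.8 in MEF, so ES replicate 1 stood apart from the other ES plates. Subtraction left 77 of its 148 MEF reads, and the log2 fold change of ES over MEF was 0.56 before and 1.69 after. Per kilobase, H3f3b gave 73.9%, 94.8% and 97.3% of the pair's summed reads in ES, 91.6% in Neuro2A and 94.9% in MEF, lowest in ES replicate 1. After subtraction the share per kilobase was 97.8% in ES replicate 3 and 96.3% in MEF. Without division by length and before subtraction H3f3b gave 71.4%, 94.1% and 97.0% in ES, 90.6% in Neuro2A and 94.3% in MEF.

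H2afx (H2A.X), the variant phosphorylated at DNA breaks, had 136, 171 and 219 CPM in the ES plates, against 7.73 in Neuro2A and 113 in MEF. Neuro2A was the low plate, with 24 reads in 6 kept wells, while the gene had reads in 30, 21 and 61 kept ES wells and 19 of MEF. ES was 22.7 times Neuro2A, a log2 fold change of 4.50 ± 1.05 (edgeR adjusted p = 0.271, DESeq2 adjusted p = 0.000378). Against MEF the log2 fold change was 0.63 ± 0.81 (edgeR adjusted p = 0.733), or 0.90 after subtraction.

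The linker variant H1f0 (H1.0), known to accumulate in cells that leave the cycle, had 59.4, 55.2 and 42.5 CPM in ES, 253 in Neuro2A and 179 in MEF. Every ES plate was below both others, and the log2 fold change was -2.27 ± 0.72 against Neuro2A (edgeR adjusted p = 0.344) and -1.77 ± 0.73 against MEF (edgeR adjusted p = 0.589), or -1.37 after subtraction. In MEF 185 of its 354 reads lay in 1 well. H2afj had 33.8, 8.71 and 28.3 CPM in ES, 43.5 in Neuro2A and 79.3 in MEF. H2afy, which encodes macroH2A1, a variant linked to silent chromatin, had 24.6, 20.3 and 11.9 CPM in ES, 61.5 in Neuro2A and 54.0 in MEF. Both had every ES plate below the other 2, but 148 of the 191 Neuro2A reads of H2afy (77.5%) and 62 of the 135 of H2afj (45.9%) lay in 1 well each, as did 51.8% and 64.8% of their reads in ES replicate 1. The remaining variants were H2afy2 (macroH2A2) at 0 to 43.5 CPM, H1fx at 2.02 to 6.46 CPM and H1fnt, a testis linker histone, with 1 read in ES replicate 2.

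**Figure D3:**
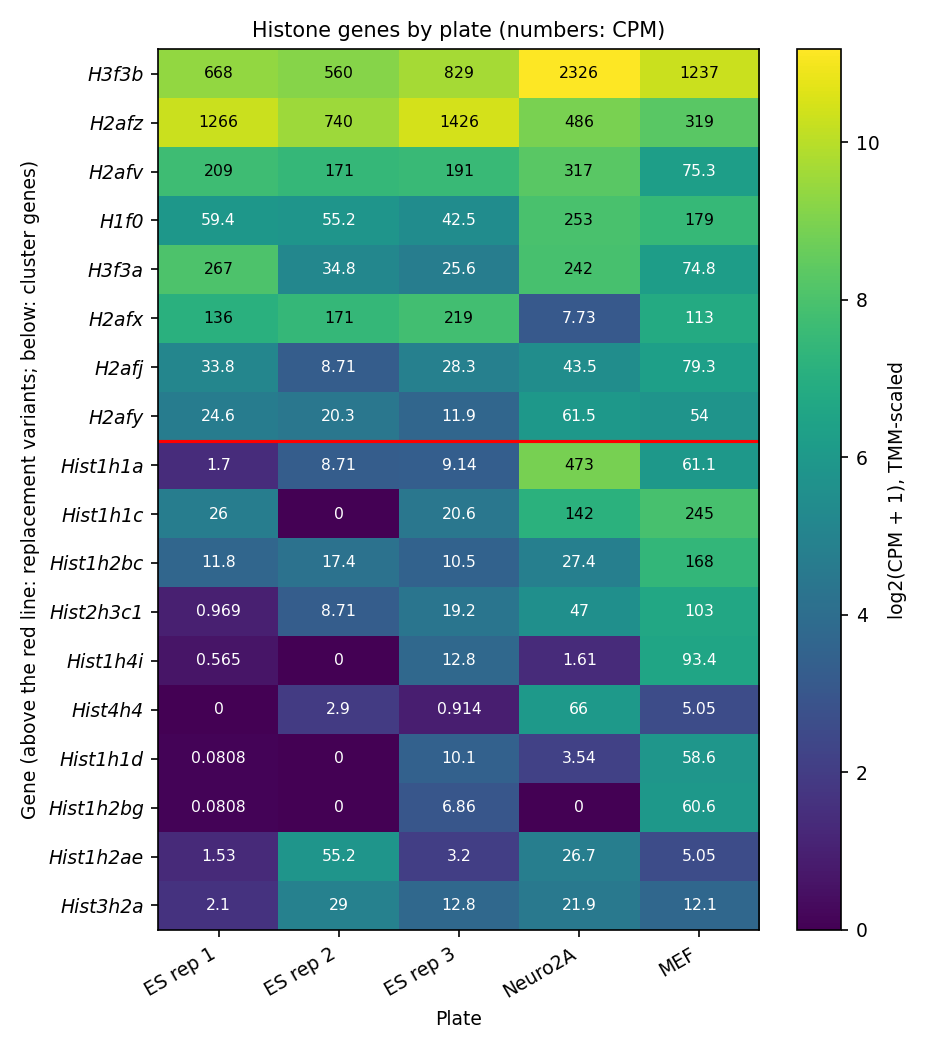
CPM of the 18 histone genes with the highest mean over the 3 cell types in their class (8 replacement variants above the red line, 10 cluster genes below) in each plate; colour is log2(CPM + 1) and the numbers are CPM scaled by TMM factors. H2afz is higher in the 3 ES plates (740 to 1426) than in Neuro2A and MEF, and H2afx is low in Neuro2A (7.73). H3f3b is lower in the ES plates (560 to 829) on this scale, but without TMM factors ES replicate 3 lies above MEF.

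The fit across all genes called no histone gene. Of the 65, 39 passed the filter on low counts (29 cluster genes and 10 variants), and a gene could pass through 1 group alone. With edgeR's quasi-likelihood test at an adjusted p of 0.05, 0 of 39 were higher and 0 lower in ES, against MEF and against Neuro2A, where the background was 0% of 12271 genes each way. The 2 residual degrees of freedom came from the ES plates alone, whose biological coefficient of variation was 122%, and the lone plates were assumed to vary like them. At an unadjusted edgeR p under 0.05, 0 of 39 were higher in ES than in MEF (background 4.21%) and 3 were lower (4.17%), namely Hist1h1a, Hist1h1c and Hist1h2bc. Against Neuro2A, 1 was higher (8.38%), H2afx, and 3 were lower (4.05%), H1f0, H3f3b and Hist1h1a. DESeq2 called 0 of the 18 histone genes to which it gave an adjusted p against MEF (background 4.67% higher and 1.02% lower), and 4 of 24 against Neuro2A, H2afx and Hist1h2ac higher (11.4%) and Hist1h1a and H3f3b lower (1.73%).

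Every ES plate was above MEF for 11 of the 39 (23.3% of all genes) and below it for 15 (39.8%), both near the background. Against Neuro2A, every ES plate was above for 7 (28.8%) and below for 17 (28.1%). The median log2 fold change of the 39 was 0.56 against MEF, beside -0.08 over all genes tested, and -0.62 against Neuro2A, beside 0.91 over all genes. For the 29 cluster genes alone it was 0.31 against MEF and -0.48 against Neuro2A, and for the 10 variants 0.56 and -0.79. Of the 29, every ES plate was below MEF for 11 (39.8% of all genes) and above it for 7 (23.3%). The lower cluster-gene share of ES against MEF thus does not describe most of the 29. Without ES replicate 1, which leaves 1 residual degree of freedom, edgeR called 645 genes against MEF and 1438 against Neuro2A. Among them were Hist1h1c lower than MEF, and H2afx higher and H3f3a, Hist1h1a and Hist1h1c lower than Neuro2A. Most genes called against MEF were lower in ES, and most called against Neuro2A were higher. The histone genes tested in this fit were not counted, so these histone calls cannot be set against a background share.

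Per cell, wells were thinned to 1000 gene reads each, because the median kept well held from 2520.5 gene reads (ES replicate 2) to 101130 (ES replicate 1). At that depth a cluster-gene read was found in 14.0%, 27.3% and 22.3% of wells in the ES plates, against 36.0% in Neuro2A and 34.8% in MEF. Each ES plate was below both others, and the ES mean was 21.2% ± 6.72 (SD, n = 3), with an exact permutation p of 0.25 against Neuro2A and 0.5 against MEF. After subtraction 15 of 94 thinned wells had one in ES replicate 3 and 27 of 86, 31.4%, in MEF, so the ES plates stayed below both others. Unthinned, the shares were 62.4%, 51.5% and 73.4% in ES, 73.3% in Neuro2A and 65.2% in MEF, so that ES replicate 3 overlapped both other plates. With carried-over reads subtracted the unthinned difference between ES and MEF was 1.20 percentage points, against -2.79 before. The testis gene Hist1h2ba, itself 1 of the 54 cluster genes, had a thinned read in 0 of 93, 66 and 94 ES wells. It had one in 0 of 86 Neuro2A wells and in 1.09% of MEF wells. As a single gene it gives no background level for the 54 together.

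A replacement variant was found in 74.2%, 80.3% and 91.5% of thinned ES wells, 83.7% of Neuro2A wells and 60.9% of MEF wells, so MEF was the lowest and Neuro2A lay within the ES range. After subtraction it was 80.9% in ES replicate 3 and 58.1% in MEF. The ES mean before subtraction was 82.0% ± 8.77 (SD, n = 3; exact permutation p = 0.25 against MEF and 1 against Neuro2A). H2afz was found in 52.7%, 60.6% and 68.1% of ES wells, 25.6% of Neuro2A wells and 14.1% of MEF wells, with ES above both others, also after subtraction (60.6% in ES replicate 3 and 17.4% in MEF). H3f3b was found in 32.3%, 42.4% and 48.9% of ES wells, 69.8% of Neuro2A wells and 44.6% of MEF wells, highest in Neuro2A and with MEF inside the ES range, also after subtraction (39.4% in ES replicate 3 and 37.2% in MEF). H2afx was found in 6.45%, 10.6% and 20.2% of ES wells, 6.52% of MEF wells and 0 of 86 Neuro2A wells. At 1000 reads per well the 0 allows a share of up to 3.49% of wells with a read (exact 95% upper bound 4.20%) and does not limit the wells that express the gene, since 6 of the 86 Neuro2A wells, 6.98%, had a read unthinned.

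**Figure D4:**
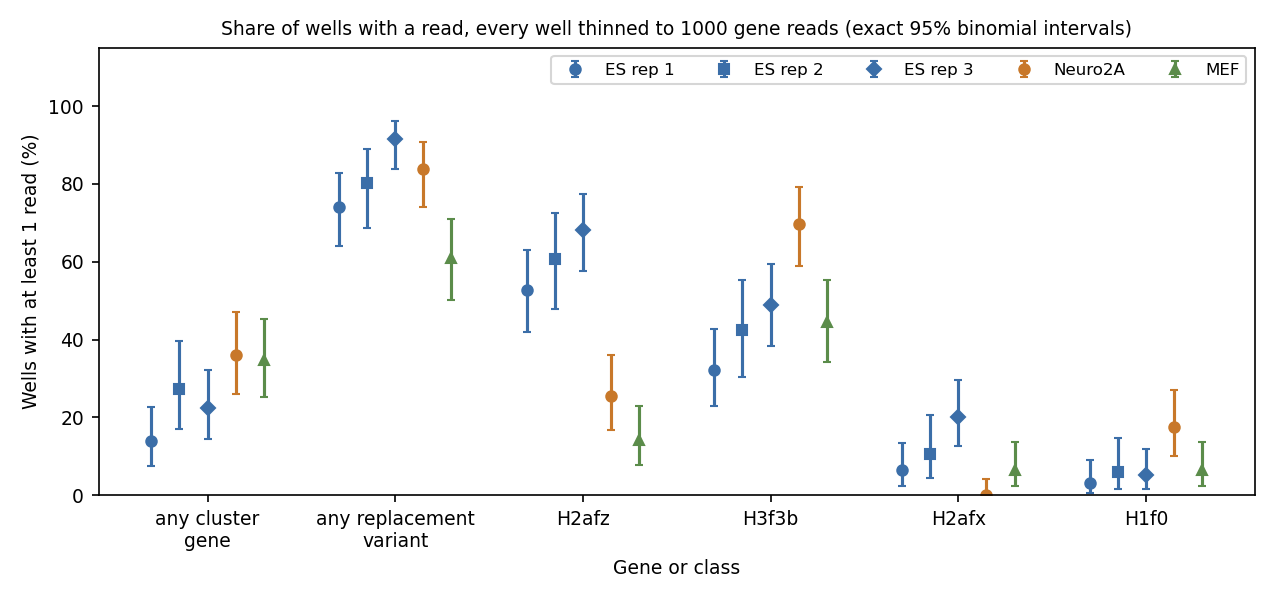
Share of kept wells with at least 1 read, in percent, after thinning every well to 1000 gene reads, for both histone classes and 4 replacement variants; symbols are the 5 plates and error bars exact 95% binomial intervals over wells. The share of wells with H2afz reads is 52.7% to 68.1% in ES, above Neuro2A (25.6%) and MEF (14.1%), while cluster-gene reads were found in 14.0% to 27.3% of ES wells, below 36.0% in Neuro2A and 34.8% in MEF.

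Neuro2A and MEF were compared by ratio alone, since each had 1 plate and there is no replicate check. Of 27 histone genes with at least 20 reads in 1 of these plates, 11 were over 2-fold higher in Neuro2A by the ratio of CPM + 1 (30.6% of all such genes) and 6 over 2-fold lower (42.1%). Scaled by library size alone, 17 were higher (37.8% of all such genes under that scaling) and 5 lower (36.5%). Those lower in Neuro2A included H2afx, 13.1-fold, Hist1h2bg, 61.6-fold, Hist1h4i, 36.2-fold, and Hist1h2bc, 5.97-fold. Those higher included Hist4h4, 11.1-fold, Hist1h1a, 7.63-fold, and H2afv, 4.17-fold. All these ratios are without subtraction of carried-over reads. Subtraction left 0 of the 10 MEF reads of Hist4h4, 0 of 121 of Hist1h1a and 56 of 149 of H2afv. In Neuro2A 203 of 205 Hist4h4 reads and 1119 of 1470 Hist1h1a reads lay in 1 well each. The median was a log2 ratio of 0.80 among the 27 and -0.37 over all such genes.

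Some cluster-gene reads also followed the barcode between plates. Of 7 cluster genes with at least 50 reads in some MEF well, 6 had their top well in ES replicate 3 at the same barcode. Of 4 replacement variants 1 did, but variants can have many reads in other wells of ES replicate 3, such as H2afz with 3120 on the plate. The same count over all genes was not made, so it cannot be read as particular to cluster genes. Hist1h4i is an example, with 151 reads in 1 MEF well and 27 of the 28 reads of ES replicate 3 at that barcode. From Neuro2A to MEF the same held for 2 of 4 cluster genes and 0 of 8 variants. Hist1h1a had 1119 reads in 1 Neuro2A well and 85 of the 121 MEF reads at its barcode, and Hist4h4 had 203 reads in 1 Neuro2A well and all 10 MEF reads at its barcode. At the barcode of those 85 MEF reads of Hist1h1a, ES replicate 3 held 18 of its 20 reads.

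**Figure D5:**
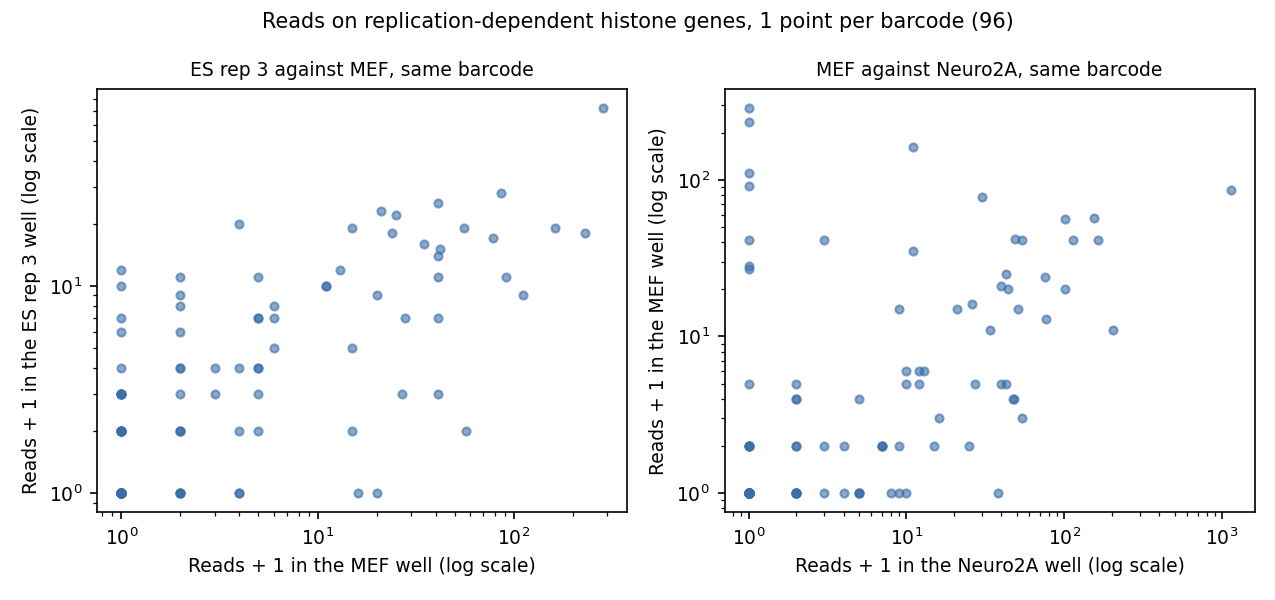
Reads on cluster genes at each of 96 shared barcodes, as reads + 1 on log axes: ES replicate 3 against MEF (left) and MEF against Neuro2A (right), each point 1 barcode. Wells with many reads in the plate on the horizontal axis tend to have reads in the other plate as well, such as the barcode with over 1000 Neuro2A reads on the right, where Hist1h1a has 1119 reads in Neuro2A and 85 in MEF.

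Genes that act on histones or in S phase were read beside them, from lists drawn up for this purpose with earlier results of the series known. Of 34 DNA replication genes with reads, 18 were higher in ES than MEF at an unadjusted edgeR p under 0.05 (background 4.21%) and 0 lower, 16 were called higher by DESeq2 (4.67%), and 30 had every ES plate above MEF (23.3%). Against Neuro2A, 8 of the 34 were higher at that unadjusted p (background 8.38%) and 0 lower. DESeq2 called 8 higher (11.4%), and 26 had every ES plate above Neuro2A (28.8%). Their median log2 fold change was 4.16 against MEF and 1.44 against Neuro2A, beside -0.08 and 0.91 over all genes tested. Their summed level was 5551, 3623 and 4540 CPM in ES, 2099 in Neuro2A and 865 in MEF, so the ES plates were highest. The cluster-gene share, which unlike CPM is not scaled by TMM factors, was lowest in the ES plates. Cdt1, which loads the replicative helicase, had 195, 235 and 219 CPM in ES, 20.6 in Neuro2A and 3.54 in MEF.

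Of 39 histone supply genes (transcription and 3′ end processing of cluster genes, chaperones and exchange factors), 4 were higher in ES than MEF at an unadjusted edgeR p under 0.05 (background 4.21%) and 0 lower, and 6 were higher than Neuro2A (8.38%) and 0 lower. Their summed level was 8926, 4488 and 6107 CPM in ES, 6701 in Neuro2A and 4343 in MEF, so Neuro2A lay inside the ES range and MEF below every ES plate. Hat1, which acetylates new H4, had 559, 557 and 557 CPM in ES, 107 in Neuro2A and 101 in MEF (DESeq2 adjusted p = 0.0108 against MEF and 0.0135 against Neuro2A). Nasp, a chaperone of H3 and H4, had 606, 427 and 654 CPM in ES, 183 in Neuro2A and 229 in MEF, above both others in every ES plate. Slbp, which binds the stem-loop, had 63.0, 5.81 and 128 CPM in ES, 68.9 in Neuro2A and 56.6 in MEF, with the ES plates on both sides of the others. The MEF levels of these genes describe mainly 1 well each, with 178 of 200 reads of Hat1, 382 of 454 of Nasp and 88 of 112 of Slbp. In Neuro2A 338 of 569 Nasp reads lay in 1 well. Cenpa, the centromeric H3 that the name rule leaves out, had 106, 105 and 133 CPM in ES, 142 in Neuro2A and 56.1 in MEF.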

How the data were processed

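The deposited files hold the authors' raw read counts per gene and well barcode for 5 plates, per the file headers, and genes missing from a plate's file count as 0 reads. Per the submitters' processing notes Bowtie was used; version, genome build and annotation: not given in the sources used here. Repeats and mitochondrial genes were left out, and kept wells, those with 1000 or more gene reads, were summed by plate, since cells of a plate are not replicates. Nothing states that the ES plates are separate cultures.

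Plate sums of all genes were fitted with edgeR 4.0.16 (TMM, filterByExpr, glmQLFit and glmQLFTest, Benjamini-Hochberg over 12271 genes), with DESeq2 1.42.0 as the alternative, in R 4.3.3. Shares have exact 95% binomial intervals (scipy 1.17.1) and were compared by exact permutation over plates. They were not scaled by TMM factors. The limit beside a share of 0 is 3 wells of the total. The edgeR step was tested on simulated data for ES against MEF with 12271 genes: of 200 genes changed 16-fold, 99.5% were recovered at a dispersion of 0.1 and 0% at the fitted dispersion of 1.50. Carried-over reads were subtracted by the median share over genes with at least 100 CPM in the source plate and 10 times the level of plates other than source and target, from plate sums for single genes and well by well for class shares, makeup and shares of wells.

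The histone genes, the lists and the tests were chosen with earlier results of these data known. Named with a value in every plate were the 10 cluster genes and 8 variants with the highest mean CPM over the 3 groups. Alternatives varied the tool, scaling, filters, wells, plates, carried-over reads and denominator. Scaling by library size alone in the edgeR fits, the unthinned share of wells and the thinned share after subtraction were added after seeing the data.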

Additional observations from a re-analysis of the deposited data

How the results depend on the processing

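Counts of calls depended on the tool and the filter. Against MEF, where edgeR called 0 genes, DESeq2 called 481 and edgeR without a low-count filter 9, and leaving out 1 ES plate gave 0 to 645 genes and 0 to 1 histone genes. Against Neuro2A the corresponding counts were 1240 and 82 genes and 0 to 1438, with 4 histone genes called by DESeq2, 1 without the filter and 0 to 4 with 1 ES plate left out. No other alternative to these fits gave a call. The log2 ratio of the cluster-gene share, -1.08 for ES over MEF and -1.76 over Neuro2A, was -1.98 and -2.58 with all reads as denominator, repeats included, and ran from -1.51 to -0.79 and from -2.19 to -1.46 with 1 ES plate left out. That of the replacement share, 0.90 over MEF, was 1.13 after subtraction, 0.47 as a mean of wells and 0.36 over all reads, where ES replicate 2 moved below MEF, and 0.85 to 0.99 with 1 ES plate left out; over Neuro2A it was -0.45, -0.14 as a mean of wells, -0.91 over all reads and -0.50 to -0.37 with 1 plate left out.

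The difference in wells with a cluster-gene read, ES minus MEF, was -13.6 percentage points, -2.79 unthinned, 1.20 unthinned after subtraction (reversed) and -4.81 without barcodes ending in G, with -16.6 to -9.98 when 1 ES plate was left out. Minus Neuro2A it was -14.8, -6.75 thinned to 500 reads and -2.39 without those barcodes, with -17.9 to -11.2. Scaled by library size alone, 17 histone genes in place of 11 were over 2-fold higher in Neuro2A than MEF, and 37.8% in place of 30.6% of all genes compared. Some log2 fold changes changed sign, none of them called. Against MEF these were Hist1h1a (6.94) and Hist4h4 (4.58) after subtraction, both with 0 MEF reads left. Without ES replicate 2 they were Hist1h2ae (-0.56, to 2.86 with another ES plate left out) and Hist3h2a (-0.19, to 0.76), and without ES replicate 1 H3f3a (-1.31, to 1.58). Against Neuro2A they were Hist1h4i (-1.78, to 2.21) without ES replicate 3, Hist1h1d by DESeq2 (-0.10), by RLE (-0.076), without ES replicate 3 (-5.15, to 0.75) and after subtraction (-1.04), Hist1h2ae without ES replicate 1 (0.075), without 3 (0.16; -3.45 without 2) and without barcodes ending in G (1.26), and without those barcodes Hist3h2a (0.26) and H2afv (0.085). The cause of these shifts was not tested. No paired analysis was possible because Neuro2A and MEF have 1 plate each and the replicate numbers only follow accession order. Depth limits ES replicate 2 most, where 3 reads are 8.71 CPM.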
